A study of Ericerus pela with 2 samples.

Results

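The unigenes described here are the parts of the Notch, Hedgehog, BMP and EGF signalling pathways measured in male wax scale insects of the species Ericerus pela. A unigene is an assembled transcript fragment. Members were found by searching the protein database match of each unigene for 20 pathway keywords, and 91 of 120710 unigenes were found, 21 for Notch, 15 for Hedgehog, 43 for BMP, activin and TGF-beta, and 12 for EGF. The keywords delta-like, mastermind, bone morphogenetic, BAMBI and fibroblast growth factor matched no unigene, so the fibroblast growth factor (FGF) pathway had no member by this rule. The 91 unigenes carried 29 protein names, 22 of them on several unigenes, which may be fragments of 1 transcript or related genes.

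The series compared 1 RNA library of male pupae with 1 of male prepupae, the stage before. All animals were male, wild type and untreated, and an age of 90 is given for each stage without its unit. The sample labels name the whole body as the source while the design note names the retina, and the number of animals in each library is not given in the sources used here. With 1 library per stage, no difference below has a replicate check or a test.

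These pathways carry signals between neighbouring cells and pattern wings, legs, eyes and the nervous system of insects. Notch is a receptor bound by ligands on the adjoining cell, and its cleaved inner part enters the nucleus with Suppressor of Hairless. Hedgehog relieves the block that its receptor Patched puts on Smoothened, which lets Cubitus interruptus act on genes. BMP and activin ligands join type I and type II receptor kinases, which phosphorylate Smad proteins, and the EGF receptor signals through Ras and the kinase ERK once its ligands have been cut free by Rhomboid. The roles given below are known chiefly from Drosophila and vertebrates.

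The pupal library held 1840877 uniquely assigned reads and the prepupal library 2182108. The 25 unigenes of the eye list summed to 2010 reads in pupae and 245 in prepupae, the 74 of the muscle list to 12634 and 7764, and the 34 of the fat body and haemolymph list to 592 and 2170. The 13 of the neuron list summed to 938 reads in pupae and 383 in prepupae, and the 7 of the male germ line list to 36 and 78. No unigene was named hexamerin, tektin or ninaC. Across the 113976 unigenes with a mean of at least 1 RPKM (reads scaled to unigene length and library total), the median log2 ratio of pupae to prepupae was −0.49, so values lean towards prepupae before any member is considered.

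Every one of the 91 members passed that filter. Their reads over both libraries ran between 2 and 470 with a median of 28, and 59 members had at least 20. Levels were modest, with a median member at 15.6 RPKM in pupae and 25.9 RPKM in prepupae, against 18.7 and 33.2 RPKM for all filtered unigenes with a database match. Members were called by size alone, where (RPKM + 1) differed at least 2-fold between the libraries. By this rule 5 members were higher and 35 lower, which is 5.49% and 38.5% of them. Among all filtered unigenes 23.0% were higher and 39.4% lower, and among those with a database match 14.7% and 41.4%. The members' median log2 ratio was −0.49, against −0.49 for all filtered unigenes and −0.68 for those with a database match.

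The pathways lay apart from each other around the members' median. Notch members had the lowest median log2 ratio, −1.37, with 15 of 21 lower and 2 higher. Of these 21, 12 had under 20 reads over both libraries. BMP, activin and TGF-beta members stood at −0.53 with 15 of 43 lower and 2 higher. Hedgehog members had a median of −0.19 with 4 of 15 lower and none higher, and EGF members one of 0.15 with 1 of 12 lower and 1 higher. Relative to the median of all filtered unigenes these medians were −0.88, −0.04, 0.30 and 0.64 in the same order. The sign for Hedgehog thus turned once that shift was taken away. The median of filtered unigenes with a database match, which every member has, was −0.68, and only the Notch median lay below it. Lower calls were 71.4%, 34.9%, 26.7% and 8.33% of the pathways in that order, beside 41.4% of all filtered unigenes with a database match. Higher calls were 9.52%, 4.65%, 0% and 8.33%, beside 14.7%. The differences between pathways could not be tested with 1 library per stage.

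**Figure D1:**
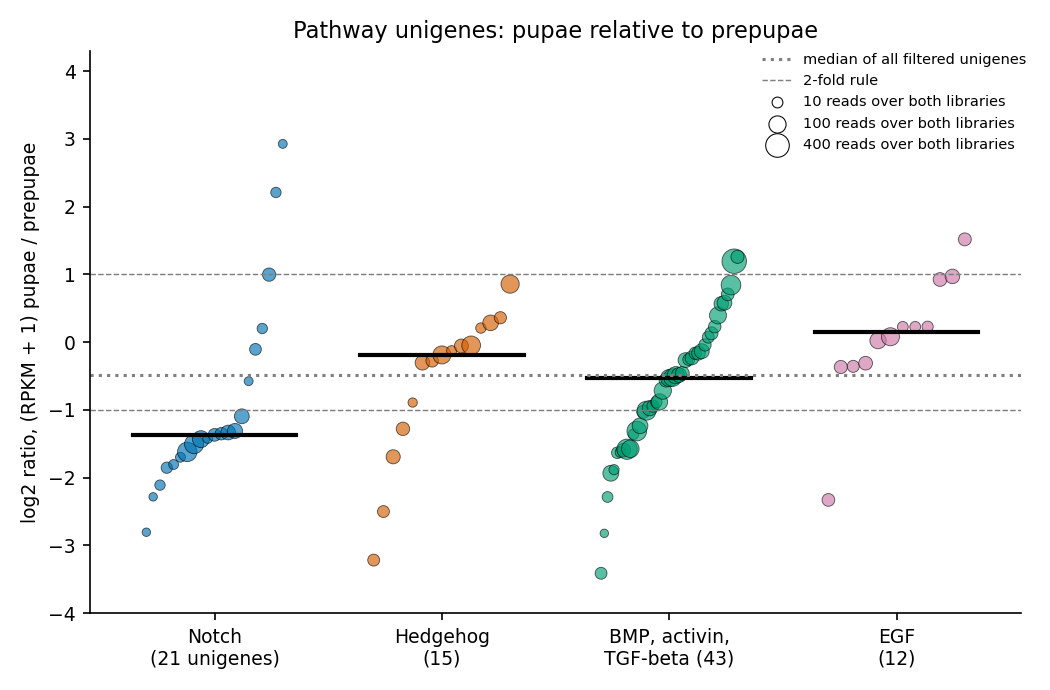
Log2 ratio, pupae over prepupae, of RPKM plus the pseudocount of 1 for each of the 91 unigenes, by pathway, with point area growing with the reads over both libraries. Black bars are pathway medians (−1.37, −0.19, −0.53 and 0.15 from left to right), the dotted line is the median of all filtered unigenes at −0.49, and dashed lines mark the 2-fold rule.

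Folds given for a protein or unigene are ratios of depth-scaled reads in pupae to prepupae with an exact 95% interval, which covers counting error only. That interval lay above equality for 7 members and below it for 26, and it held equality for 58. For the 21 Notch members it lay below equality for 9 and above it for 1, and it held equality for 11. Of all filtered unigenes with a database match, 13.8% lay above and 38.5% below, and of all filtered unigenes 10.2% and 19.0%. Of the calls by size, 3 of those lower and 1 of those higher had at most 3 reads in each library, so no fold is given for them. In whole-body RNA, fewer cells of a type and less RNA per cell cannot be told apart.

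In Notch signalling, Serrate and Suppressor of Hairless, both thinly covered, were called lower in pupae in sum, while the Notch receptor was not called in sum. Serrate, a ligand of Notch, had 1 read in pupae and 9 in prepupae over 2 unigenes, 7.59-fold lower (1.05 to 333). The 10 unigenes named as the Notch receptor summed to 64 reads in pupae and 143 in prepupae, 1.88-fold lower (1.39 to 2.57). Relative to the median of all filtered unigenes the receptor's ratio of pupae to prepupae was 0.745. Of the 10, 7 passed the rule as lower while none passed it as higher, beside 41.4% and 14.7% of all filtered unigenes with a database match. Of the 6 with at least 10 reads, 4 had an interval below equality, and all 4 were called. The others called lower had 1 read in pupae and 5 in prepupae each. Suppressor of Hairless, the DNA-binding partner of cleaved Notch, held 5 and 21 reads, 3.54-fold lower in pupae (1.3 to 12).

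The Notch receptor unigenes did not all give the same ratio. The longest, with 861 bases, had 13 reads in pupae and 41 in prepupae, 2.66-fold lower (1.40 to 5.41), and reads covered 43.3% of its length in pupae and 80.7% in prepupae. A 629-base unigene had 14 and 37 reads, 2.23-fold lower (1.18 to 4.46). The exception was a 268-base unigene matched to a notch-like protein, with 19 reads in pupae and 11 in prepupae, a ratio of 2.05 (0.926 to 4.76) that fell just short of the rule. The 3 unigenes matched to notch homolog 5 of the beetle Tribolium castaneum also went against the rest, with 14 reads in pupae and 5 in prepupae, 3.32-fold higher (1.13 to 11.8). Both Notch members called higher carry this name, and they rest on 10 reads in pupae and 1 in prepupae.

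By reads over both libraries, the receptor did not lead the Notch list. Strawberry notch, a nuclear protein that modifies Notch signalling in Drosophila, had 73 reads in pupae and 262 in prepupae over 2 unigenes, 3.03-fold lower (2.33 to 3.98). Those unigenes were 2.91-fold (1.99 to 4.34) and 3.15-fold lower (2.18 to 4.65), so they gave like ratios. Notchless, which takes part in ribosome assembly in spite of its name, had 34 and 110 reads, 2.73-fold lower (1.84 to 4.14). Without strawberry notch the median log2 ratio of Notch members was −1.35, and without Notchless it was −1.37.

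Other genes of the Notch pathway were looked up from a list of 15 partners, of which 14 matched a unigene. Of their 49 unigenes that passed the filter 3 were higher in pupae, 15 lower and 31 neither, with a median log2 ratio of −0.24. Among all filtered unigenes with a database match 14.7% were higher and 41.4% lower, with a median of −0.68. Kuzbanian/ADAM10, the protease that makes the first cut in the bound receptor, had 380 reads in pupae and 393 in prepupae over 10 unigenes, a ratio of 1.15 (0.993 to 1.32), and none of the 10 was called. Of these, 3 were matched to Kuzbanian-like, a related but separate protein, with 17 and 20, 43 and 44, and 93 and 82 reads.

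Gamma-secretase makes the final cut. Of the 8 unigenes of its 4 subunits, presenilin, nicastrin, APH-1 and PEN-2, 4 were called lower and none higher, beside 41.4% lower among all filtered unigenes with a database match. They summed to 143 reads in pupae and 400 in prepupae, 2.36-fold lower (1.94 to 2.88). Presenilin, the catalytic subunit, had 61 and 152 reads and was 2.10-fold lower in pupae (1.55 to 2.88), with 1 of its 2 unigenes called. PEN-2 was 3.34-fold lower (2.09 to 5.53) and nicastrin 3.0-fold (1.94 to 4.78). APH-1 had a ratio of 0.622 (0.392 to 0.969), short of the rule. The grouping as a complex, its subunits other than presenilin, and O-fucosyltransferase 1, Fringe, Numb and groucho below were chosen after their values were seen.

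Proteins that tune the receptor and its ligands went in both directions. Protein O-fucosyltransferase 1, which puts the first sugar on Notch, had 9 reads in pupae and 73 in prepupae, 6.84-fold lower (3.41 to 15.6). Fringe, which lengthens that sugar and biases the receptor between its ligands, had 68 and 19 reads on the unigene of that name, 4.24-fold higher in pupae (2.52 to 7.47). Numb, an inhibitor of Notch in asymmetric divisions, had 54 and 23 reads on the unigene of that name, 2.78-fold higher (1.68 to 4.75). Of the ubiquitin ligases that drive ligand uptake, mind bomb had 176 and 159 reads and a ratio of 1.31 (1.05 to 1.64). For neuralized, 4 of 7 unigenes were lower and 1 was higher, beside 41.4% and 14.7% of all filtered unigenes with a database match. A match to suppressor of deltex held 108 of the 110 reads found for deltex in pupae and 110 of 115 in prepupae.

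Hairy and enhancer of split factors in sum, and the co-repressor groucho, were lower. This family includes usual targets of Notch. Its 7 unigenes summed to 52 reads in pupae and 143 in prepupae, 2.32-fold lower (1.68 to 3.25), with 5 lower and none higher. Among all filtered unigenes with a database match 41.4% were lower and 14.7% higher. Hairy itself had 4 and 32 reads, and a unigene named enhancer of split 3 and 26. A unigene named HES-1 had 0 and 11 reads, while 2 others of that name had 13 and 8 and 20 and 19 reads and were not called. Groucho, the co-repressor these factors recruit, had 10 reads in pupae and 89 in prepupae, 7.51-fold lower (3.90 to 16.2). Jagged-2, a vertebrate name for a Serrate-type ligand that was looked up after the data were seen, had 5 and 36 reads over 2 unigenes, 6.07-fold lower (2.38 to 19.8).

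A list of proliferating cell markers was lower in the same direction as the Notch members. Of its 16 unigenes, for replication and mitosis proteins such as PCNA and cyclin B, 15 were lower and none higher. Among all filtered unigenes with a database match 41.4% were lower and 14.7% higher. The list summed to 135 reads in pupae and 1043 in prepupae (8.90 and 58.0 RPKM). Its part in the values of Notch or of any other member was not tested.

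**Figure D2:**
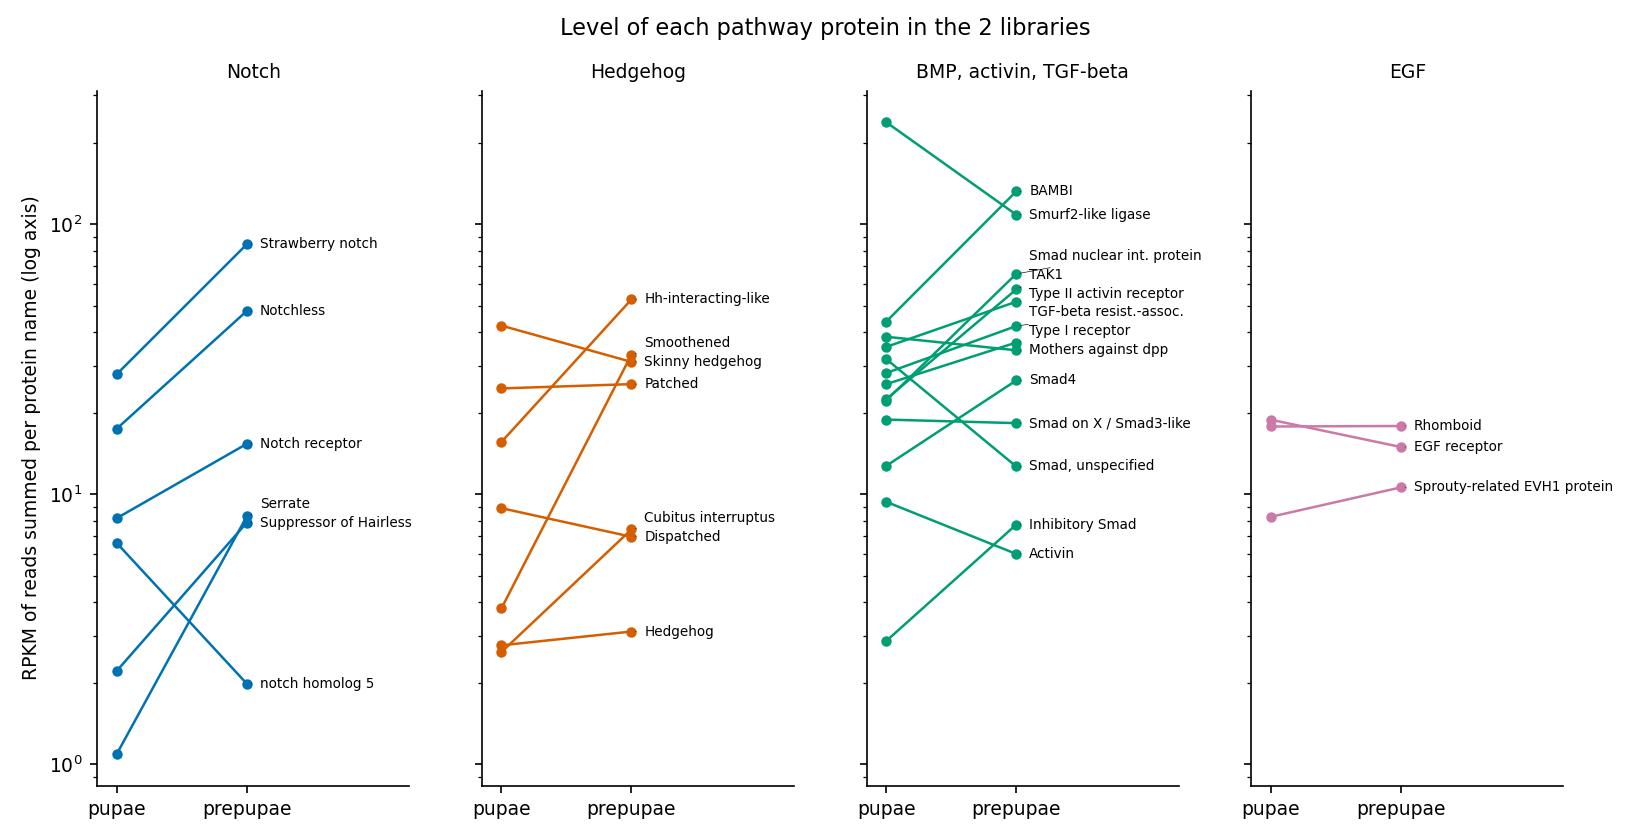
Level of each protein name in pupae (left) and prepupae (right) of each panel, as RPKM of the reads summed over its unigenes and their summed length, on a log axis. Most Notch proteins lie lower in pupae, whereas Patched, Rhomboid and the Smad3-like line are nearly flat and the Smurf2-like ligase is the highest point in pupae at 239 RPKM.

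In Hedgehog signalling, no unigene of the ligand machinery or of the receptor Patched was called, while Smoothened and Cubitus interruptus, both thinly covered, were lower in pupae. Partners that act on Cubitus interruptus did not share 1 direction. The ligand Hedgehog had only 3 reads in pupae and 4 in prepupae, too few for a direction, as its ratio of 0.889 had an interval of 0.130 to 5.26. Skinny hedgehog, the acyltransferase that lipidates the ligand, summed to 115 and 100 reads over 3 unigenes, a ratio of 1.36 (1.03 to 1.80). Its longest unigene had 79 and 51 reads, a ratio of 1.84 (1.28 to 2.66), and the others 19 and 28 and 17 and 21. Dispatched, which releases the lipidated ligand, had 14 and 13 reads.

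Patched was the best-covered protein of this pathway. Its 4 unigenes summed to 161 reads in pupae and 198 in prepupae, or 24.7 and 25.6 RPKM, a ratio of 0.964 (0.778 to 1.19). The interval of each of the 4 held equality, and their ratios ran between 0.821 and 1.22. The longest, with 1824 bases, had 66 and 81 reads, and these covered 78.3% of it in pupae and 77.4% in prepupae. With TMM scaling, which corrects library totals for the make-up of each library, the Patched ratio was 1.27.

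Smoothened, the transducer that Patched holds back, had 3 reads in pupae and 31 in prepupae, 8.72-fold lower (2.72 to 44.6). Both of its unigenes passed the rule, with 1 and 16 reads and 2 and 15 reads. Cubitus interruptus, the transcription factor at the end of the pathway, had 8 and 27 reads, 2.85-fold lower in pupae (1.26 to 7.25), mostly on a unigene of 1238 bases with 7 and 24 reads. These pairs rest on 34 and 35 reads in all. A unigene matched to a vertebrate Hedgehog-interacting protein-like protein had 8 and 32 reads, 3.37-fold lower (1.52 to 8.48), and its place in the insect pathway is unknown.

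Of 9 Hedgehog partners on the list, 5 matched unigenes outside the members. Of their 34 unigenes that passed the filter 6 were higher, 12 lower and 16 neither. The shares among all filtered unigenes with a database match were 14.7% higher and 41.4% lower. Suppressor of fused, an inhibitor that binds Cubitus interruptus, had 5 reads in pupae and 50 in prepupae, 8.44-fold lower (3.38 to 27.1). Exostosins, which build the heparan sulphate chains that carry Hedgehog between cells, summed to 95 and 317 reads over 7 unigenes, 2.82-fold lower (2.23 to 3.58), with 5 lower. Slimb, a ubiquitin ligase part that leads to trimming of Cubitus interruptus, had 87 and 104 reads, a ratio of 0.992 (0.737 to 1.33). The catalytic subunit of protein kinase A, which phosphorylates Cubitus interruptus and has many other targets, matched 21 unigenes with 849 and 619 reads, a ratio of 1.63 (1.46 to 1.81), and of the 18 that passed the filter 6 were higher and 3 lower. Dally and other glypicans, carriers of those chains, had 23 and 44 reads.

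In BMP, activin and TGF-beta signalling, neither type of receptor, nor Mothers against dpp, nor the co-Smad Smad4 was called in sum, while the inhibitor BAMBI was lower in pupae and the Smurf2-like ligase higher. The ligand activin had 25 reads in pupae and 19 in prepupae on a unigene of 1446 bases, a ratio of 1.56 (0.825 to 3.0). No member carried the name of the BMP ligand decapentaplegic itself. Of 7 pathway names looked up after the data were seen, 3 were called in sum, Jagged-2 and dpp as lower and heparin-binding growth factor 1 as higher. The unigene named dpp had 5 and 41 reads, 6.92-fold lower in pupae (2.74 to 22.4). Daughters against dpp, an inhibitory Smad, had 7 and 12 reads, the ligand myoglianin 8 and 18, and a type I receptor-like unigene 18 and 25, and none of these was called. Glass bottom boat, another BMP ligand from the partner list, had 49 and 111 reads, a ratio of 0.523 (0.366 to 0.739).

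Type II activin receptors formed the largest family, with 11 unigenes. They summed to 249 reads in pupae and 434 in prepupae, 1.47-fold lower (1.26 to 1.73), which is near the overall shift, and with TMM scaling the ratio was 0.895. Of the 11, 2 passed the rule as lower and none as higher, beside 41.4% and 14.7% of all filtered unigenes with a database match. The best covered had 46 and 111 reads, 2.04-fold lower (1.43 to 2.94), and lay just past the rule at a log2 ratio of −1.01. The 4 type I receptor unigenes had 84 and 142 reads, a ratio of 0.701 (0.529 to 0.925), and none was called. Saxophone, a type I receptor named apart from these and chosen after its value was seen, had 41 and 38 reads.

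Mothers against dpp, the Smad that BMP receptors activate, had 7 unigenes with 196 reads in pupae and 207 in prepupae, a ratio of 1.12 (0.918 to 1.37). That sum hid ratios on either side. Unigene153994_FOB had 110 and 72 reads, a ratio of 1.81 (1.33 to 2.47). Unigene154757_FOB had 24 and 54, a ratio of 0.527 (0.311 to 0.867). The lowest ratio among those with at least 10 reads was on a short unigene of 161 bases. It had 1 read in pupae and 16 in prepupae, 13.5-fold lower (2.10 to 566). The intervals of the first do not overlap those of the other 2, so the shared name covers unigenes that behaved differently.

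Smads of the activin branch, matched to Smad on X and Mothers against dpp 3, had 20 reads in pupae and 23 in prepupae. A unigene named only smad had 19 and 9 reads, 2.50-fold higher in pupae (1.08 to 6.28). Smad4 is the co-Smad shared by both branches. Its 7 unigenes summed to 57 reads in pupae and 140 in prepupae, 2.07-fold lower (1.51 to 2.87). That sum lay just short of the rule, and 5 of the 7 unigenes passed it as lower, beside 41.4% of all filtered unigenes with a database match. The interval lay below equality for 2 of the 7 and held it for 5. The longest Smad4 unigene had 17 reads in pupae and 50 in prepupae, 2.48-fold lower (1.41 to 4.59). Medea, the Drosophila name of the co-Smad, stood on separate unigenes in the partner list and had 78 and 103 reads, a ratio of 0.898 (0.660 to 1.22).

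Inhibitors of the pathway differed in direction. BAMBI, a membrane protein that resembles a receptor without its kinase, had 45 reads in pupae and 162 in prepupae, 3.04-fold lower (2.17 to 4.33). The inhibitory Smads had 5 and 16 reads, and the interval of their ratio of 0.370 held equality (0.106 to 1.06). The Smurf2-like ligase, which marks Smads and receptors for breakdown, was the most abundant member per length and the clearest increase. Its 2 unigenes summed to 338 reads in pupae and 182 in prepupae, 2.2-fold higher (1.83 to 2.65). Unigene146642_FOB carried most of it, with 310 and 160 reads, 333 and 145 RPKM, and 2.30-fold higher (1.89 to 2.80). It was the only one of the 30 members with at least 50 reads that was called higher, where 19.8% of all unigenes this deep were and 15.4% of those with a database match. The corresponding lower count was 11 of 30, beside 36.2% and 40.1%.

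Some members carry a keyword of this pathway but name proteins other than its ligands, receptors, Smads and inhibitors. Smad nuclear interacting protein, a nuclear protein with roles in RNA processing, had 53 reads in pupae and 185 in prepupae over 3 unigenes, 2.94-fold lower (2.16 to 4.08). TAK1, a kinase named for its activation by TGF-beta and also used in immune signalling, had 45 and 136 reads, 2.55-fold lower (1.81 to 3.66). With these, Notchless, the Hedgehog-interacting protein-like unigene and a TGF-beta resistance-associated protein left out, 83 members remained, 5 of them higher and 29 lower, with a median log2 ratio of −0.36.

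The partner list for BMP, of ligands, receptors, extracellular regulators and nuclear factors, showed no common direction. Of 14 names 8 matched, and of their 12 unigenes that passed the filter 2 were lower, none higher and 10 neither. The shares among all filtered unigenes with a database match were 41.4% lower and 14.7% higher. Short gastrulation, which binds and carries BMP, had 254 reads in pupae and 169 in prepupae, a ratio of 1.78 (1.46 to 2.18). Twisted gastrulation, its helper, had 98 and 83 reads, a ratio of 1.40 (1.03 to 1.90). Tolloid, the protease that frees BMP from short gastrulation, had 72 and 155 reads, a ratio of 0.551 (0.410 to 0.733). Brinker, a repressor of BMP targets, had 38 and 49 reads.

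**Figure D3:**
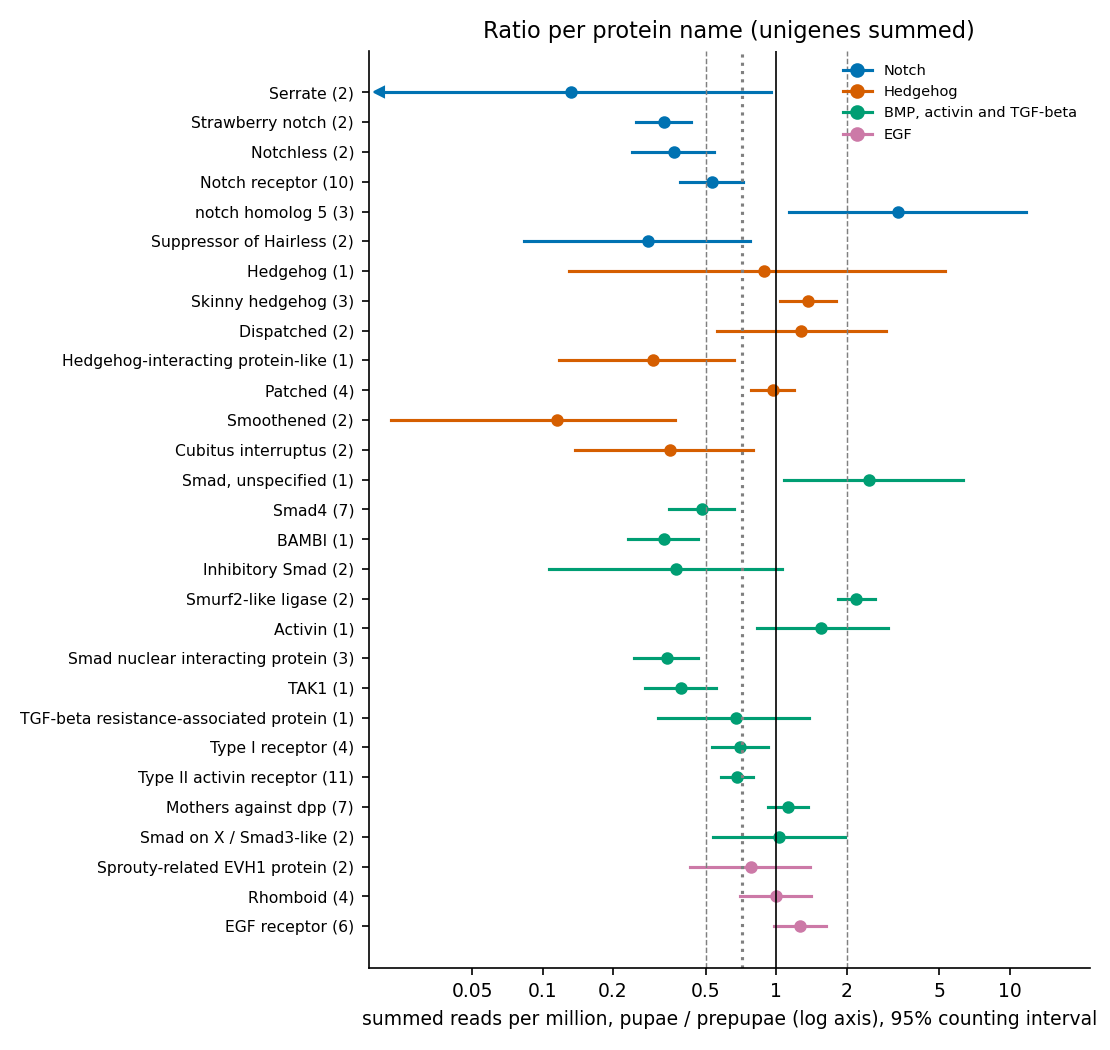
Ratio of summed depth-scaled reads in pupae to prepupae for the 29 protein names with the exact 95% counting interval, on a log axis, with the number of unigenes in parentheses. Dashed lines mark a 2-fold difference, the dotted line the median of all filtered unigenes, and an arrowhead an interval that runs past the axis. Smoothened, Strawberry notch, BAMBI and Smad nuclear interacting protein lie wholly left of 0.5, and the Smurf2-like ligase is centred at 2.2.

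In EGF signalling no protein name was called in sum. The 6 unigenes of the EGF receptor summed to 132 reads in pupae and 124 in prepupae, or 18.9 and 15 RPKM, a ratio of 1.26 (0.980 to 1.63) (1.66 with TMM scaling), and none was called. Its longest unigene, of 1812 bases, had 59 and 66 reads, which covered 78.9% of it in pupae and 76.1% in prepupae. A 515-base unigene had 29 and 17 reads and a ratio of 2.02 (1.07 to 3.92), short of the rule.

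Rhomboid, the membrane protease that releases EGF ligands, summed to 63 reads in pupae and 75 in prepupae, a ratio of 0.996 (0.701 to 1.41), and its unigenes went opposite ways. The unigene named Rhomboid-related protein 3 had 3 and 21 reads, 5.91-fold lower (1.76 to 30.9). A unigene named protein rhomboid had 19 and 7 reads, 3.22-fold higher (1.3 to 9.06). These intervals do not overlap, and they are the 2 calls of the EGF list. The most abundant Rhomboid unigene had 36 and 42 reads. Sprouty-related EVH1 proteins, inhibitors of Ras signalling, had 21 and 32 reads, a ratio of 0.778 (0.426 to 1.39).

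The partner list for EGF holds ligands, downstream proteins and inhibitors. Unigenes were found for 7 of its 15 names, and of the 27 that passed the filter 3 were higher, 7 lower and 17 neither. The shares among all filtered unigenes with a database match were 14.7% higher and 41.4% lower. The adaptor drk had 26 reads in pupae and 66 in prepupae, 2.14-fold lower (1.34 to 3.51), and its partner Son of sevenless 41 and 40 reads. The kinase Dsor1 had 5 and 17 reads on the unigene of that name; a second match, to a suppressor of MEK1, carried the other 207 and 295. Corkscrew/SHP2, a phosphatase needed for Ras activation, had 60 and 58 reads, and Cbl, which removes active receptors, 86 and 152. A TGF-alpha-like protein, an EGF-type ligand looked up after the data were seen, had 38 and 32 reads, a ratio of 1.41 (0.856 to 2.33).

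The 11 unigenes whose best match was ERK-A, the kinase at the end of the cascade, summed to 324 reads in pupae and 226 in prepupae, a ratio of 1.70 (1.43 to 2.02). Most of the difference lay on 1 unigene. Unigene156357_FOB, with 1091 bases, had 148 and 16 reads, 11-fold higher (6.53 to 19.7). Unigene143377_FOB had 82 and 38 reads, 2.56-fold higher (1.72 to 3.86), and these were the 2 called higher, while 4 of the 11 were called lower. A best match alone does not tell ERK from other kinases of its family.

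Although no member matched the FGF keyword, heartless, an FGF receptor used in the insect mesoderm and from the partner list, matched 2 unigenes and was the largest increase among all partners. It had 307 reads in pupae and 72 in prepupae, 5.05-fold higher (3.90 to 6.63). The longer unigene had 234 and 63 reads, 4.40-fold higher (3.32 to 5.91), and the other 73 and 9, 9.61-fold higher (4.80 to 21.9). Of 74 muscle marker unigenes 24 were called higher, 7 lower and 43 neither. Among all filtered unigenes 23.0% were higher and 39.4% lower, and among those with a database match 14.7% and 41.4%. Summed levels of the 74 muscle unigenes were 230 RPKM in pupae and 119 RPKM in prepupae. Titin held 11696 of their reads in pupae and 6768 in prepupae, and paramyosin had 495 and 944. Their part in the heartless value was not tested. A unigene named heparin-binding growth factor 1, an FGF-type ligand looked up after the data were seen, had 71 and 34 reads, 2.48-fold higher in pupae (1.62 to 3.84).

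**Figure D4:**
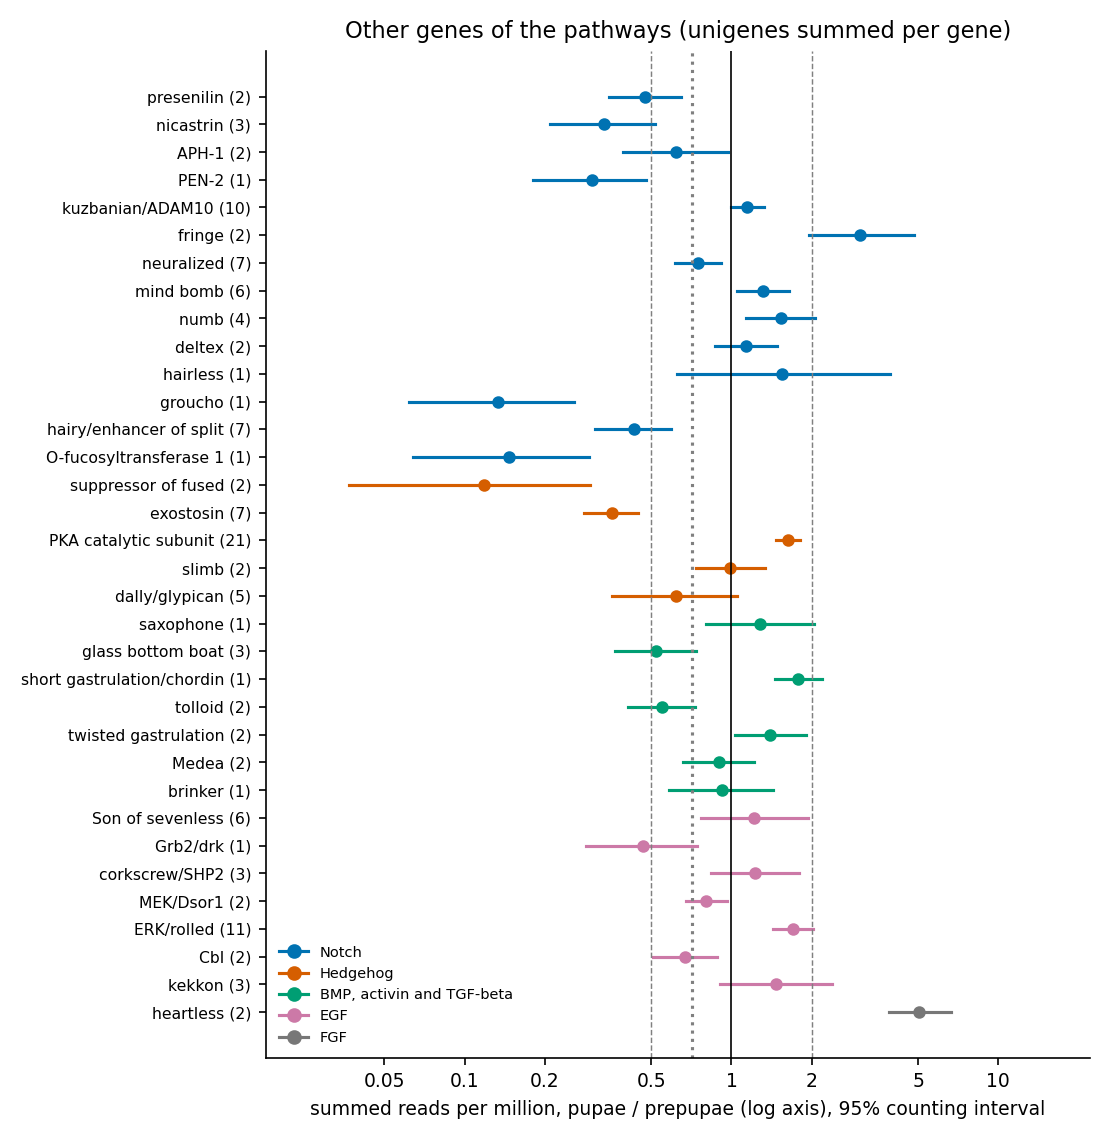
Ratio of summed depth-scaled reads in pupae to prepupae for the partner genes with at least 20 reads, with the exact 95% counting interval on a log axis and the number of unigenes in parentheses. Sums hold every unigene matched to a name, also those that name another protein. Numb (1.53) thus includes Numb-associated kinase, fringe (3.02) a fringe connection transporter, and MEK/Dsor1 (0.805) a suppressor of MEK1. Deltex includes suppressor of deltex, and kuzbanian/ADAM10 includes Kuzbanian-like. Heartless lies furthest right at 5.05, and suppressor of fused, groucho and O-fucosyltransferase 1 furthest left; dashed lines mark a 2-fold difference and the dotted line the median of all filtered unigenes.

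By position in the pathways, over all of them, receptors, nuclear factors and ligand-side proteins differed in median, but not in the same order in summed reads. Of 35 receptor unigenes 9 were lower and none higher, with a median log2 ratio of −0.37 and a summed ratio of 0.786 (0.713 to 0.866). They leave out notch homolog 5, with 2 of its 3 unigenes higher, and Smoothened, with both of its 2 lower. Of 21 unigenes for transcription factors and Smads other than inhibitory ones 11 were lower and 1 higher, with a median of −1.03 and a summed ratio of 0.847 (0.729 to 0.983). The 13 unigenes for ligands and their processing, release and cleavage had 3 lower and 1 higher, a median of 0.02 and a summed ratio of 1.19 (0.983 to 1.44). The lower calls were 25.7%, 52.4% and 23.1% of these groups in the same order, beside 41.4% of all filtered unigenes with a database match. The higher calls were 0%, 4.76% and 7.69%, beside 14.7%. After centring on the median of all filtered unigenes the receptors stood at 0.12, the nuclear factors at −0.54 and the ligand group at 0.51.

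Unigenes of 1 name agreed for some proteins and not for others. Among unigenes with at least 10 reads, the ratios ran between 0.216 and 2.05 for the Notch receptor (6 unigenes), between 0.132 and 1.66 for type II receptors (11) and between 0.0741 and 1.81 for Mothers against dpp (5). For type I receptors they ran only between 0.601 and 0.889 (4 unigenes).

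**Figure D5:**
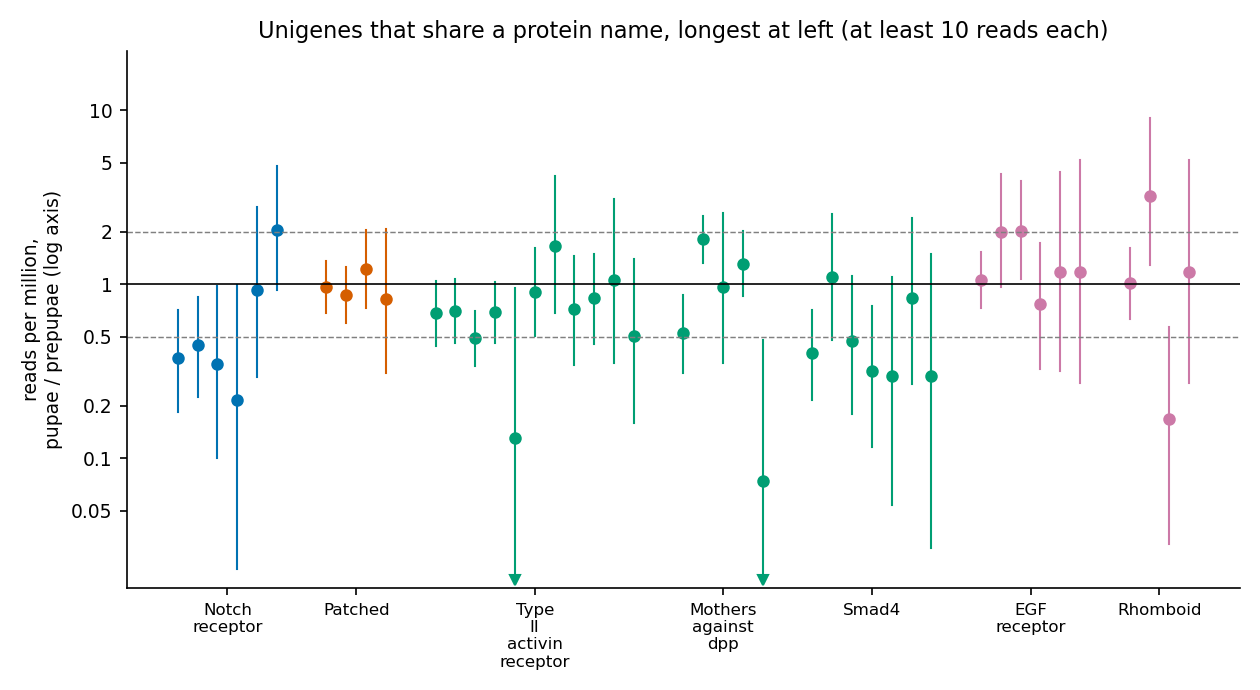
Ratio of depth-scaled reads in pupae to prepupae for each unigene with at least 10 reads of 7 protein names, longest at left within a name, with the exact 95% counting interval on a log axis. The 4 Patched points lie close to 1, while points of Mothers against dpp and Rhomboid lie on both sides of it with intervals that do not all overlap; arrowheads mark intervals that run past the axis.

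Little else was shared by the members. Their best matches came chiefly from insects, led by the pea aphid Acyrthosiphon pisum with 19, Tribolium castaneum with 15 and the louse Pediculus humanus corporis with 12. Their median length was 381 bases, against 249 for all filtered unigenes and 355 for those with a database match. A process term of the Gene Ontology was attached to 52. Of 9 members with a term for wings 1 was higher and 4 lower, with a median log2 ratio of −0.88, while over all 251 filtered unigenes with such a term the median was −0.51 and 27.5% were lower.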

How the data were processed

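Per the labels' protocols, whole-body RNA was sequenced from standard Illumina libraries. Per the file headers, the authors deposited 1 table per library with a count of unique reads, a length, the percent of that length covered by reads, RPKM and a best protein match per unigene. The assembler and aligner are not stated in the labels or headers. The deposited RPKM equalled reads scaled to length and library total for 100% of values, within a relative tolerance of 1e-06. Reads shared between unigenes were not counted, so near-identical copies may have lost reads in both libraries.

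Tables were joined on the unigene identifier, with 0 reads where a unigene was listed in 1 table only. The log2 ratio used a pseudocount of 1 RPKM, which understates the change of low unigenes, and a mean RPKM of at least 1. With 1 library per stage there is no test across samples; edgeR 4.0.16 gave only TMM factors. Exact (Clopper-Pearson) conditional binomial 95% intervals came from scipy 1.17.1 and cover counting error only. Members, partner lists and marker lists were chosen with earlier results of these data known; any member could be named, partners by abundance with at least 20 reads, up to 6 per pathway, save those marked. Matching by best protein name is the authors' annotation and was not checked against sequence.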

Additional observations from a re-analysis of the deposited data

How the results depend on the processing

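No paired analysis was possible because each stage has 1 library and no test was made. The FGF pathway had no member, so its median has no value. The calls depended on scaling and depth. As reported, 5 members were higher and 35 lower. TMM scaling gave 11 higher and 27 lower, and centring on the median of all filtered unigenes 13 higher and 22 lower, beside 30.0% and 31.3% of all filtered unigenes. Members higher numbered 3 at a mean RPKM of at least 5. Members with at least 50 reads gave 1 higher and 11 lower, and unigenes of at least 500 bases 2 higher and 13 lower; these alternatives hold fewer members. Summing reads to 1 value per protein name, an alternative added after seeing the data, gave 3 higher and 11 lower.

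The median log2 ratio of all members was −0.11 with TMM and 0.0031 after centring, that of BMP, activin and TGF-beta −0.15 and −0.039, and that of Hedgehog 0.30 after centring. The Notch median stayed below 0 under every alternative run, between −1.50 at a pseudocount of 0.1 and −0.88 after centring. After centring 8 of 21 Notch members were lower and 3 higher, beside 31.3% and 30.0% of all filtered unigenes. Depth limits what can be said of Hedgehog, Serrate, Smoothened and Suppressor of Hairless, each with under 35 reads in all.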
